A study of Mus musculus with 8 samples.

Results

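The genes followed in whole mouse pancreas were 10 genes of trypsin control: 7 trypsinogen copies (Prss1, Prss2, Prss3, Try4, Try5, Try10 and 2210010C04Rik), Ctrc, which encodes chymotrypsin C, and the protease inhibitors Spink3 and Serpini2. They were chosen by gene symbol, and all 10 were found among the 36432 gene IDs of each table. Poly(A) RNA of 8 pancreases from mice aged 6 to 8 weeks, of mixed strain, had been sequenced. The 4 tested mice carried Cre recombinase knocked in at Ptf1a on 1 allele (Ptf1a-Cre +/KI) together with Gata6 lox/lox, and the 4 controls carried Ptf1a-Cre +/KI without floxed Gata6, so every mouse had the knock-in allele. Ptf1a is active in pancreatic progenitors and acinar cells, so Cre acts in the epithelium of the pancreas and not in its blood vessels, immune cells or fat. The comparison asks how the adult pancreas differs once Gata6, a zinc finger transcription factor, has been targeted in its epithelium.

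Trypsinogen is the inactive precursor of trypsin. Acinar cells pack it into zymogen granules and secrete it into the gut, where enteropeptidase cuts off a short activation peptide, and trypsin then activates the other digestive proenzymes. Trypsin that forms early, inside the pancreas, can damage it, and several safeguards limit this: Spink3 (the mouse counterpart of human SPINK1) blocks the active site of trypsin, and chymotrypsin C degrades trypsinogen and trypsin in humans. Serpini2, also called pancpin, is a serpin of the exocrine pancreas, and loss of the gene in a mutant mouse leads to exocrine insufficiency.

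The 7 trypsinogen genes lie on chromosome 6, among the segments of the T cell receptor beta locus. On mm9, the build of the deposited tables, they run from 2210010C04Rik (40980267 to 40985508) through Try4 (41252268 to 41255531), Try5 (41261232 to 41264794), Try10 (41304104 to 41307943), Prss3 (41323794 to 41327677) and Prss1 (41408931 to 41413785) to Prss2 (41471786 to 41475078). The stretch around the activation site is shown for each copy because it shows at a glance how alike the copies are, which bears on how reads could be divided among them. The sequences are from the GENCODE M21 transcripts on GRCm38, and capitals mark the aspartate codons and the lysine codon after which trypsinogen is cut.
Prss2: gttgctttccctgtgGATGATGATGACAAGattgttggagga
Try4: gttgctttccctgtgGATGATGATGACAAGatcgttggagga
Try5: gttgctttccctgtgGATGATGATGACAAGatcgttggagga
Try10: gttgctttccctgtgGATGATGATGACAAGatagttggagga
Prss1: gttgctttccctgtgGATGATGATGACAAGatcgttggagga
Prss3: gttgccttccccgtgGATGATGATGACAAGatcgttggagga
2210010C04Rik: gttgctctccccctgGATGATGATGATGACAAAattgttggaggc
The stretch was the same in Prss1, Try4 and Try5. In 6 copies there were 4 aspartate codons before the lysine and in 2210010C04Rik 5.

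Over the whole coding sequence Try4 and Try5 were 97.4% identical and Prss1 and Prss3 96.3%. Prss2 was 88.6% to 91.7% identical to the other copies apart from 2210010C04Rik, which stood furthest away, at 75.4% to 76.7% identity to the other 6. Prss3 had a still closer neighbour, Gm10334, at 99.1%. Reads of 50 bases cut from the transcripts would have matched another of the 11 trypsinogen-locus transcripts compared in 66.1% of positions for Prss3, 64.2% for Try4, 54.9% for Prss1, 51.5% for Try5 and 25.4% for Try10. For Prss2 the share was 7.83%, and for 2210010C04Rik it was 0%. The values of Prss2 and 2210010C04Rik thus depended least on how the authors' software divided shared fragments, and those of the other 5 copies are uncertain to the extent of these shares.

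**Figure D1:**
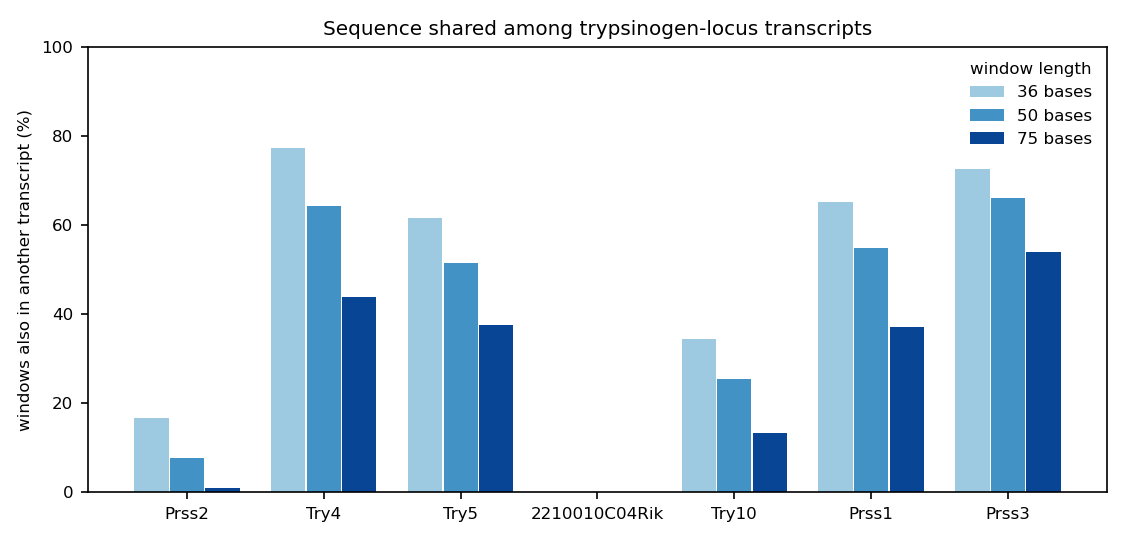
Share of windows of 36, 50 or 75 bases in each trypsinogen transcript (y axis, percent) that also occur in another of the 11 trypsinogen-locus transcripts. Windows of Prss3 and Try4 were shared most often, Prss2 had 7.83% at 50 bases, and 2210010C04Rik had none at any of the 3 lengths.

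The 250 bases before the gene start are shown for the most abundant copies, for the distant copy 2210010C04Rik and for Prss3, whose values departed most from those of the other copies. They are from RefSeq on GRCm38.p6, 5′ to 3′ on the gene's strand, and 6 of the 10 genes matched that table. Each window was searched on both strands for 4 motifs. The E-box of the PTF1A complex, which drives acinar genes, was written CACCTG, and its TC-box TTTCCC. The motif bound by GATA factors was written AGATAA, and that of the acinar nuclear receptor NR5A2 AAGGTCA. Only these exact letters were searched, so other forms of each motif were not counted. Capitals mark matches on either strand, and no match overlapped another.
Prss2, chr6:41521526-41521775, plus strand: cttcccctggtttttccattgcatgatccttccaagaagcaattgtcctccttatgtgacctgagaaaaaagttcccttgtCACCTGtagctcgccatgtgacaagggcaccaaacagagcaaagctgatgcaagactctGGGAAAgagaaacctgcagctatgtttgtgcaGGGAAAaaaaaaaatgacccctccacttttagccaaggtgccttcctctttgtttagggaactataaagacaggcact
Try4, chr6:41302022-41302271, plus strand: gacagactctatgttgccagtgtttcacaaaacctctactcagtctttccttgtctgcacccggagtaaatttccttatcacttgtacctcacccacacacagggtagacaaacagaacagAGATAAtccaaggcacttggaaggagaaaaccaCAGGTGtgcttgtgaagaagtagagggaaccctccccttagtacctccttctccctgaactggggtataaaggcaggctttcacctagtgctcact
2210010C04Rik, chr6:41035510-41035759, minus strand: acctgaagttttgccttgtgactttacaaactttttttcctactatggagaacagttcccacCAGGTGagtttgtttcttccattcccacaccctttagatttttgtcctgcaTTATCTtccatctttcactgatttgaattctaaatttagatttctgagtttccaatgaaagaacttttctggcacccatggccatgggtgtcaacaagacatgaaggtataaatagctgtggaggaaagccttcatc
Prss3, chr6:41377614-41377863, minus strand: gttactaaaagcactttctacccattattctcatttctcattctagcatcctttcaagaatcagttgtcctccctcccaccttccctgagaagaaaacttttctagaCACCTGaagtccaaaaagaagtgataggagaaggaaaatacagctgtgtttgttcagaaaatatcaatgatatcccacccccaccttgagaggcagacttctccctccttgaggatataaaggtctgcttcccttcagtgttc
The E-box letters occurred in all 6 promoters matched (Prss1, Prss2, Prss3, Try4, 2210010C04Rik and Serpini2) and in 17.2% of 32851 RefSeq promoters cut to the same length. TTTCCC occurred in Prss1 and Prss2 (21.9% of all promoters). AGATAA occurred in Try4, 2210010C04Rik and Serpini2 (9.99% of all promoters), and AAGGTCA in Prss1 alone (4.08% of all promoters). Such matches describe letters in these windows and are not sites of binding.

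Values are rescaled FPKM, the deposited FPKM (fragments per kilobase of transcript, normalised for depth) divided by 100000 to bring the numbers to the usual size. The same constant was used for every sample, so libraries were not equalised: the deposited sums were 2.34e+10, 8.28e+10, 6.80e+10 and 1.30e+11 in labelled libraries 1 to 4, against 1.51e+11, 1.86e+11, 1.65e+11 and 1.42e+11 in controls 1 to 4. Differences between groups are given on this scale, and with other scalings where those change them. FPKM is per transcript length, so levels of different genes can be set side by side. The intervals deposited with the values implied 5325819, 5803990, 8957966 and 6667961 fragments in labelled libraries 1 to 4, against a range of 6731348 to 7918011 in the controls. Gata6 itself had 4.81, 5.12, 4.90 and 4.12 rescaled FPKM in the libraries labelled Gata6 lox/lox, against 2.76, 2.12, 2.62 and 2.45 in controls 1 to 4. It was thus higher, not lower (log2 fold change 0.72, SE 0.11, limma with Benjamini-Hochberg adjusted p = 0.0436, above 0.05 in 21 of 25 other settings), and a gene-level value does not resolve the floxed part, so the label was not checked and the 4 libraries are called labelled libraries throughout. Labelled libraries 1 and 3 stood apart from the other 6, with low values of digestive enzymes. Titles starting with BKD were those of labelled libraries 1, 3 and 4 and control 1, which expressed the Y-linked gene Eif2s3y at 5.34 or more. Labelled library 2 (BSH) and controls 2 to 4 (ASK) expressed Xist at 17.3 or more. Title prefix and sex were therefore partly confounded with the label. Values among the BKD titles rest on 1 control, and those among the ASK and BSH titles on 1 labelled library.

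On rescaled FPKM, with no further scaling between libraries, the abundant trypsinogens were lower in labelled libraries 1 and 3 than in any control. They were nearer to the controls in labelled libraries 2 and 4. The order depended on the scale for Try5, whose implied fragments were 412129 in labelled library 3, against 149122 to 264259 in the controls. Implied fragments of Prss2 and 2210010C04Rik stayed lower in labelled libraries 1 and 3 than in any control. Summed over the 7 copies, trypsinogen made 6978, 110911, 47404 and 142671 rescaled FPKM in labelled libraries 1 to 4, against 205644, 169395, 150857 and 135863 in controls 1 to 4. Those are 4.22%, 67.0%, 28.7% and 86.2% of the control mean. As a share of all FPKM in a library, trypsinogen took 2.98%, 13.4%, 6.97% and 10.96% in labelled libraries 1 to 4, against 13.6%, 9.08%, 9.14% and 9.57% in controls 1 to 4. Genes with the Cufflinks status HIDATA are listed at 0 and so are missing from these totals. They numbered 0, 6, 5 and 6 in labelled libraries 1 to 4, against 8, 8, 6 and 7 in controls 1 to 4. The shares are therefore not strictly comparable between libraries. In bulk tissue, fewer acinar cells and less RNA per acinar cell cannot be told apart.

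**Figure D2:**
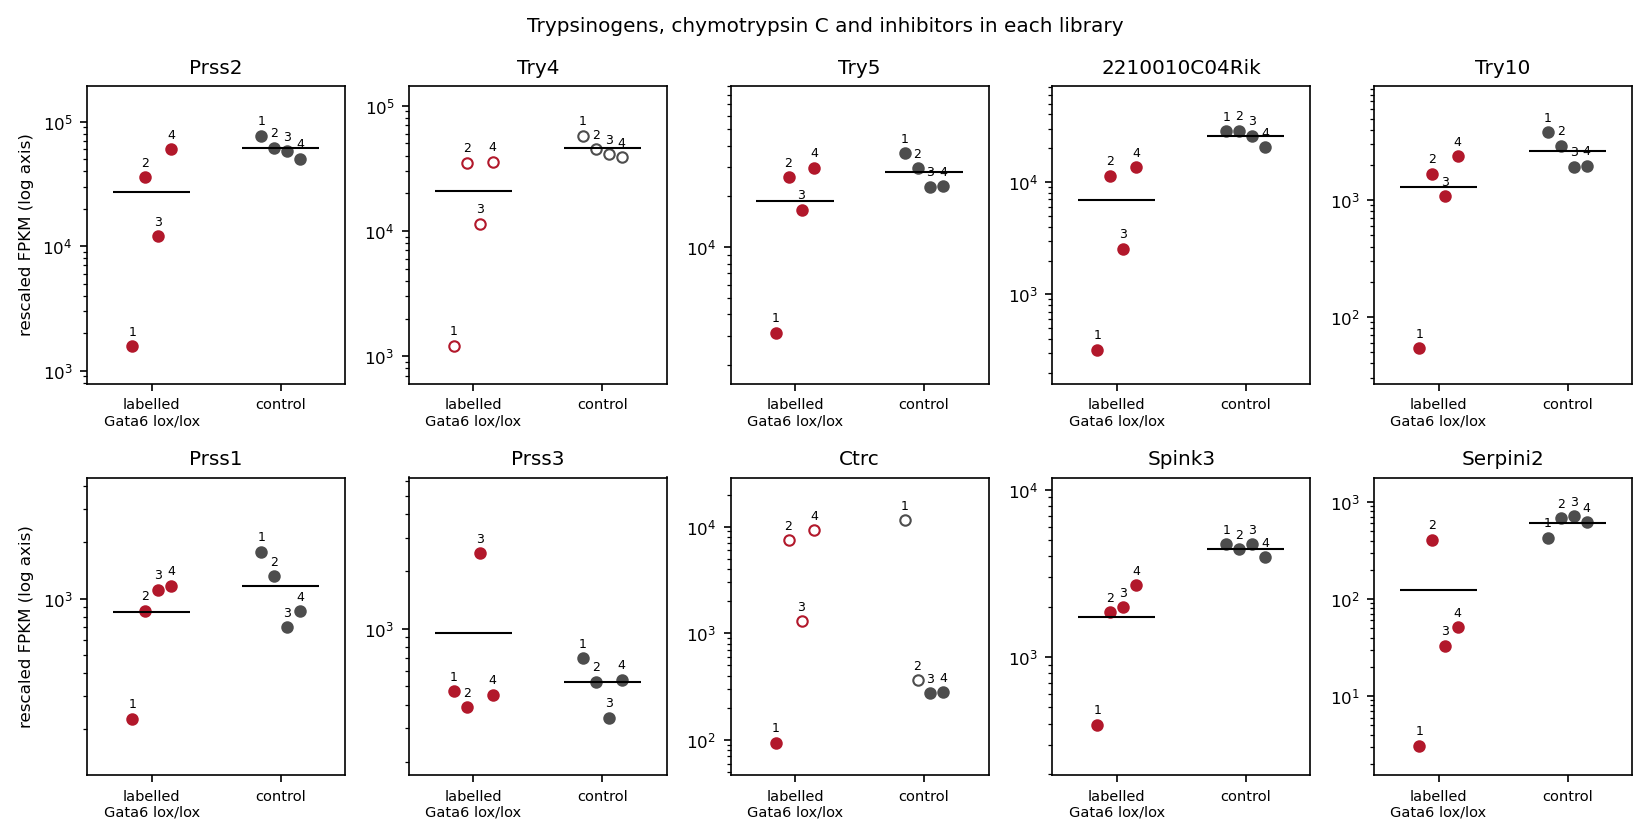
Rescaled FPKM (log axes that differ between panels) of the 10 genes in the 4 libraries labelled Gata6 lox/lox (red, left) and the 4 controls (grey, right). Numbers are library numbers, lines are group means, and hollow points have a Cufflinks status other than OK; no mean is drawn for Ctrc. 2210010C04Rik, Try4, Spink3 and Serpini2 had all labelled libraries under all controls, as did 7.64% of all genes tested.

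Prss2, the most abundant copy, encodes an anionic trypsinogen. It had 1572, 35634, 12059 and 59869 rescaled FPKM in labelled libraries 1 to 4, against 77411, 61692, 58158 and 50419 in controls 1 to 4. Labelled library 4 lay inside the control range and library 1 far under it. The means were 27284 ± 25977 in the labelled libraries and 61920 ± 11350 in the controls (SD, n = 4 each), and the log2 fold change was -2.11 (SE 1.07), which missed the threshold of 0.05 (limma adjusted p = 0.209). Without labelled libraries 1 and 3 it was -0.41 (adjusted p = 0.627), and under quantile scaling -0.26.

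Try4, the second most abundant copy, had 1211, 35090, 11421 and 35612 rescaled FPKM in labelled libraries 1 to 4, against 57506, 44947, 41161 and 38774 in controls 1 to 4. The groups did not overlap, with labelled libraries 2 and 4 nearest to the lowest control. Cufflinks gave Try4 the status LOWDATA in all 8 libraries, so it was outside the main test; with such genes kept, its log2 fold change was -1.97 (SE 1.06, limma adjusted p = 0.227), or -0.89 without labelled library 1, -0.35 without labelled libraries 1 and 3 and -0.15 under quantile scaling. Try5, its near-identical neighbour, had 3122, 25888, 16691 and 29555 in labelled libraries 1 to 4, against 36010, 29286, 22784 and 22886 in controls 1 to 4. Its groups overlapped, with labelled libraries 2 and 4 among the controls (log2 fold change -0.95, SE 0.76, adjusted p = 0.398), and its sign turned positive without labelled libraries 1 and 3 (0.02) and under 3 other scalings.

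2210010C04Rik, the copy with the most distant sequence, was the trypsinogen with the clearest separation. It had 321, 11373, 2542 and 13636 rescaled FPKM in labelled libraries 1 to 4, against 28441, 28692, 25778 and 20426 in controls 1 to 4. Every labelled library was under every control, and library 4, the highest of them, was still well under control 4. The means were 6968 ± 6522 in the labelled libraries and 25834 ± 3839 in the controls (SD, n = 4 each), a ratio of 0.270. The log2 fold change of -2.93 (SE 1.12) missed the threshold after adjustment (limma adjusted p = 0.136), while the exact permutation test, two-sided, gave 0.0286, which is the lowest p possible with 4 libraries a group. Without labelled libraries 1 and 3 it was -1.04 (adjusted p = 0.228), and under quantile, equal-sum and implied-fragment scaling -1.34, -1.98 and -1.67.

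The 3 minor copies did not share 1 pattern. Try10 had 53.8, 1679, 1083 and 2380 rescaled FPKM in labelled libraries 1 to 4, against 3799, 2935, 1936 and 1964 in controls 1 to 4, and its groups overlapped (log2 fold change -1.87, SE 1.10, limma adjusted p = 0.263; -0.65 without labelled library 1). Prss1 had 227, 859, 1116 and 1169 in labelled libraries 1 to 4, against 1777, 1315, 701 and 854 in controls 1 to 4, so that only labelled library 1 lay outside the control range (log2 fold change -0.61, SE 0.59, adjusted p = 0.472, with a positive sign under 3 other scalings). Prss3 had 471, 387, 2491 and 450 in labelled libraries 1 to 4, against 701, 527, 341 and 540 in controls 1 to 4. Labelled library 3 held more Prss3 than any other library, and the other 3 labelled libraries lay within the control range. Its log2 fold change was 0.40 (SE 0.61, adjusted p = 0.664) and turned to -0.23 without labelled library 3. Gm10334, which shares 65.1% of the 50-base windows of Prss3, was also highest in labelled library 3, with 334, 156, 1681 and 223 in labelled libraries 1 to 4, against 335, 261, 126 and 199 in controls 1 to 4 (log2 fold change 0.79, adjusted p = 0.446).

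In the make-up of the pool of 7 trypsinogen copies, the shares of 2 copies did not overlap between the groups. The pool leaves out further trypsinogen-like genes of the locus. Among those, Gm2663 and 1810009J06Rik had 1111 and 1225 rescaled FPKM in labelled library 1, beside a pool of 6978. In labelled library 3 they had 2201 and 2239, beside 47404, and in the controls at most 11.7 and 11.8. Shares in labelled libraries 1 and 3 would be lower with such genes counted. Try5 took 44.7%, 23.3%, 35.2% and 20.7% of the summed trypsinogen FPKM in labelled libraries 1 to 4, against 17.5%, 17.3%, 15.1% and 16.8% in controls 1 to 4. Its share was higher in every labelled library than in any control, also in libraries 2 and 4. Try5 shares 45.9% of its 50-base windows with Try4, so its share depends on how fragments were divided between the 2. 2210010C04Rik took 4.61%, 10.3%, 5.36% and 9.56% in labelled libraries 1 to 4, against 13.8%, 16.9%, 17.1% and 15.04% in controls 1 to 4, and was lower in every labelled library. The shares are given as values only, since shares of 1 total are not independent of each other.

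The shares of the other copies overlapped or parted by library. Prss2 held 22.5%, 32.1%, 25.4% and 42.0% in labelled libraries 1 to 4, against a range of 36.4% to 38.6% in the controls. Try4 held 17.3% to 31.6% in the labelled libraries, against 26.5% to 28.5% in the controls, and Try10 held 0.771% to 2.28%, against 1.28% to 1.85%. Prss3 held 6.75% and 5.25% in labelled libraries 1 and 3, but 0.349% and 0.315% in labelled libraries 2 and 4, against 0.226% to 0.398% in the controls. Prss1 held 3.26% and 2.35% in labelled libraries 1 and 3, and 0.775% and 0.820% in labelled libraries 2 and 4, against 0.465% to 0.864% in the controls. The controls were thus close to each other in make-up, and labelled libraries 1 and 3 departed most from them.

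**Figure D3:**
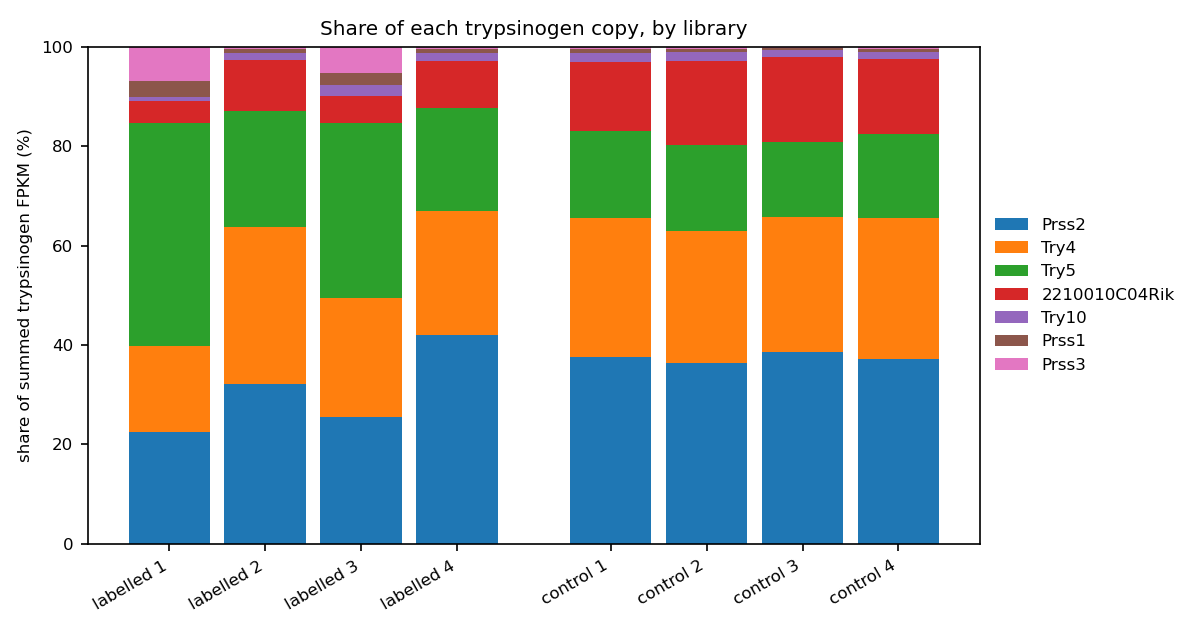
Share of each of the 7 copies in the summed trypsinogen FPKM (y axis, percent) in labelled libraries 1 to 4 (left) and controls 1 to 4 (right). The Try5 part was 20.7% to 44.7% in the labelled libraries against 15.1% to 17.5% in the controls, and the 2210010C04Rik part 4.61% to 10.3% against 13.8% to 17.1%.

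The ratio of 2210010C04Rik to Prss2 rests on the 2 copies that share the fewest windows with others and does not depend on the scaling between libraries. It was added to the planned comparisons, and 2210010C04Rik is also the trypsinogen with the clearest separation. The ratio was 0.204, 0.319, 0.211 and 0.228 in labelled libraries 1 to 4, against 0.367, 0.465, 0.443 and 0.405 in controls 1 to 4. The groups did not overlap, and the mean was 0.241 ± 0.0533 in the labelled libraries and 0.420 ± 0.0430 in the controls (SD, n = 4 each). The difference on the log2 scale was -0.82, and it was -0.63 without labelled libraries 1 and 3. It was -0.78 among the BKD titles (1 control) and -0.45 among the ASK and BSH titles (1 labelled library). Other pancreatic proteases had a median log2 fold change of -3.07 on rescaled FPKM, against -2.93 for 2210010C04Rik and -2.11 for Prss2. A lower value relative to Prss2 was thus not particular to 2210010C04Rik. Prss3 per Prss1 instead parted by library, with 2.07, 0.450, 2.23 and 0.385 in labelled libraries 1 to 4, against 0.395, 0.401, 0.487 and 0.633 in controls 1 to 4.

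Chymotrypsin C gave no usable comparison. Ctrc (mm9 chromosome 4, 141394154 to 141402274) was listed at 93.7, 7480, 1301 and 9231 rescaled FPKM in labelled libraries 1 to 4, against 11549, 364, 274 and 280 in controls 1 to 4. Cufflinks gave it the status FAIL in labelled libraries 2, 3 and 4 and in controls 1 and 2, with intervals from 0 up to 67243, so it was not tested. The values with status OK were 93.7 in labelled library 1, against 274 and 280 in controls 3 and 4. The RefSeq table of the C57BL/6J genome lists Ctrc as a transcribed pseudogene. The gene 1810035I16Rik overlaps it on mm9 chromosome 4 (141400236 to 141402905), so reads of the overlap could have been counted for either gene.

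On rescaled FPKM, with no further scaling between libraries, both inhibitors were lower in every labelled library than in any control, and neither passed the test over all genes. Spink3 (mm9 chromosome 18, 43887723 to 43896891) had 395, 1854, 1989 and 2695 rescaled FPKM in labelled libraries 1 to 4, against 4719, 4392, 4728 and 3942 in controls 1 to 4. The controls were close to each other, and labelled library 1 had the lowest value. The means were 1733 ± 966 in the labelled libraries and 4445 ± 370 in the controls (SD, n = 4 each), a ratio of 0.390, with a log2 fold change of -1.65 (SE 0.61, limma adjusted p = 0.129, exact two-sided permutation p = 0.0286). It was -0.99 without labelled libraries 1 and 3 (adjusted p = 0.234), -1.88 among the BKD titles (1 control) and -1.23 among the ASK and BSH titles (1 labelled library). Scaling moved it to -0.49 (quantile), -0.70 (equal sums outside the digestive enzymes) and -0.39 (implied fragments). The implied fragments of Spink3 were 3222, 4923, 14345 and 6074 in labelled libraries 1 to 4, against 7853, 8185, 8643 and 9921 in controls 1 to 4, so labelled library 3 had the most fragments of all 8.

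Serpini2 (mm9 chromosome 3, 75046292 to 75074000) had 3.07, 408, 33.1 and 51.3 rescaled FPKM in labelled libraries 1 to 4, against 427, 682, 713 and 620 in controls 1 to 4. Labelled library 2 nearly reached the lowest control, and the other 3 labelled libraries were far below it, library 4 included, where trypsinogen was near the control level. The log2 fold change was -3.85 (SE 1.17), the lowest of the 8 genes in the main test, with a limma adjusted p of 0.109 (0.0286 in the exact permutation test). It was -2.04 without labelled libraries 1 and 3 (adjusted p = 0.360), -4.46 among the BKD titles (1 control) and -0.72 among the ASK and BSH titles (1 labelled library). Under the same 3 scalings it was -3.44, -2.96 and -2.67. Between 187 and 8154 implied fragments stood behind the labelled values, against 4820 to 12340 behind the control values.

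The balance of trypsinogen to Spink3 spread in both directions among the labelled libraries. Summed trypsinogen FPKM per Spink3 FPKM was 17.7, 59.8, 23.8 and 52.9 in labelled libraries 1 to 4, against 43.6, 38.6, 31.9 and 34.5 in controls 1 to 4. Labelled libraries 2 and 4 were above every control, and labelled libraries 1 and 3 were below every control. The means were close, at 38.6 ± 20.9 in the labelled libraries and 37.1 ± 5.10 in the controls (SD, n = 4 each), and the difference of the mean log2 ratios was -0.12. That difference was 0.61 without labelled libraries 1 and 3, -0.63 among the BKD titles (1 control) and 0.78 among the ASK and BSH titles (1 labelled library). As a ratio of RNA within a library, of 7 trypsinogen copies to 1 inhibitor, it is independent of the scaling between libraries and says nothing of protein. The sum leaves out further trypsinogen-like genes of the locus. Of those, Gm2663 and 1810009J06Rik were highest in labelled libraries 1 and 3, where the ratio would be higher with them counted.

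Set against Serpini2, a ratio added to the planned comparisons, the balance was higher in 3 labelled libraries. Trypsinogen per Serpini2 was 2270, 272, 1433 and 2780 in labelled libraries 1 to 4, against 482, 248, 212 and 219 in controls 1 to 4. Labelled library 2 lay inside the control range, and the difference of the mean log2 ratios was 2.20. Serpini2 per Spink3 was 0.00778, 0.220, 0.0166 and 0.0190 in labelled libraries 1 to 4, against 0.0904, 0.155, 0.151 and 0.157 in controls 1 to 4, so labelled library 2 was above every control and the other 3 labelled libraries were below.

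**Figure D4:**
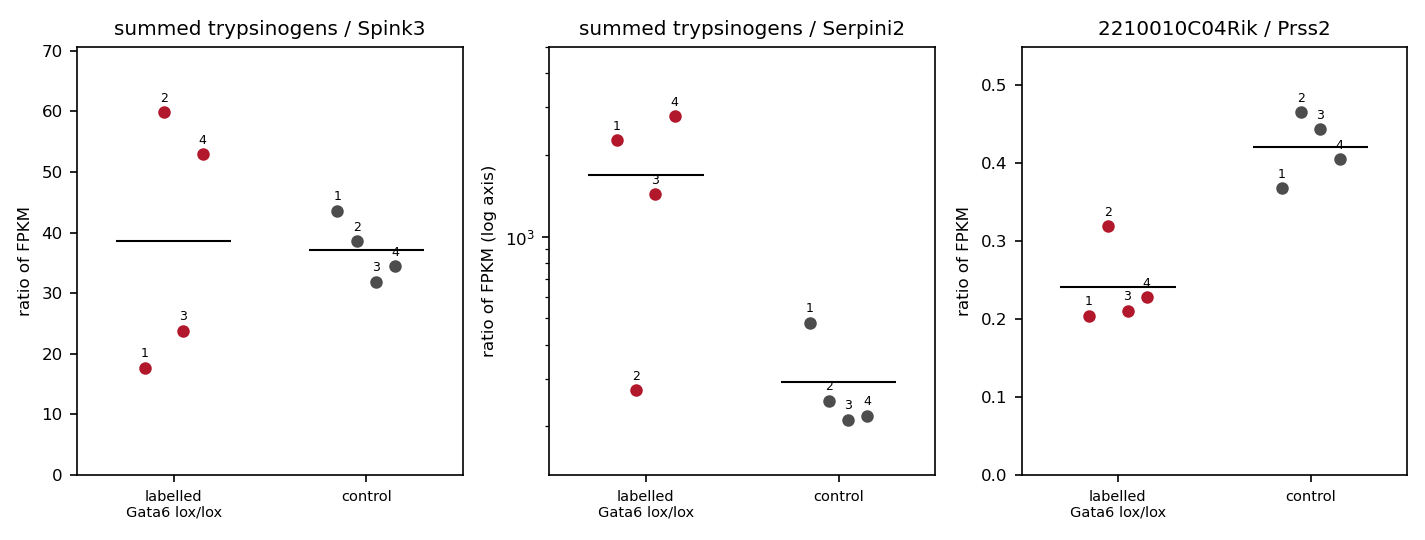
Ratios of FPKM within each library: summed trypsinogens to Spink3, summed trypsinogens to Serpini2 (log axis) and 2210010C04Rik to Prss2, in the labelled libraries (red, left) and the controls (grey, right). Numbers are library numbers and lines are group means. The third ratio separated the groups (0.204 to 0.319 against 0.367 to 0.465), and the other 2 did not.

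In the test over all genes, 8 of the 10 genes entered and none passed an adjusted p of 0.05 in limma, where 0.196% of 11760 genes passed as lower and 0.238% as higher. At an unadjusted p under 0.05, 3 of the 8 were lower (2210010C04Rik, Spink3 and Serpini2), against 12.3% of all genes. The same 3 had groups that did not overlap, against 7.64% of all genes. An exact permutation test gave the same 3 at an unadjusted p under 0.05 and none after adjustment. Of the 8 log2 fold changes, 7 were negative, as were 4955 of those of the 11760 genes tested. The median of the 8 was -1.76, against 0.10 over all genes tested. Without labelled libraries 1 and 3 the median was -0.38. Under quantile, equal-sum and implied-fragment scaling 5 of the 8 were negative, with medians of -0.37, -0.81 and -0.51.

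Other pancreatic proteases also had negative log2 fold changes. The list held 10 genes (elastases, chymotrypsinogens, carboxypeptidases and Klk1), of which 8 could be tested; none passed, 7 were lower at an unadjusted p under 0.05 (12.3% of all genes were), and all 8 were lower without overlap (7.64% of all genes were), with a median log2 fold change of -3.07. Cela2a, an elastase, had 311, 40096, 4795 and 45712 rescaled FPKM in labelled libraries 1 to 4, against 107394, 117948, 115035 and 93465 in controls 1 to 4 (log2 fold change -3.90, SE 1.48, limma adjusted p = 0.135). It was -2.39 without labelled library 1 and -1.34 without labelled libraries 1 and 3. Ctrb1, a chymotrypsinogen, had 5853, 85891, 35403 and 103195 in labelled libraries 1 to 4, against 136516 and 114626 in controls 3 and 4, and controls 1 and 2 had no estimate. The difference between the trypsinogens and these proteases was not tested.

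**Figure D5:**
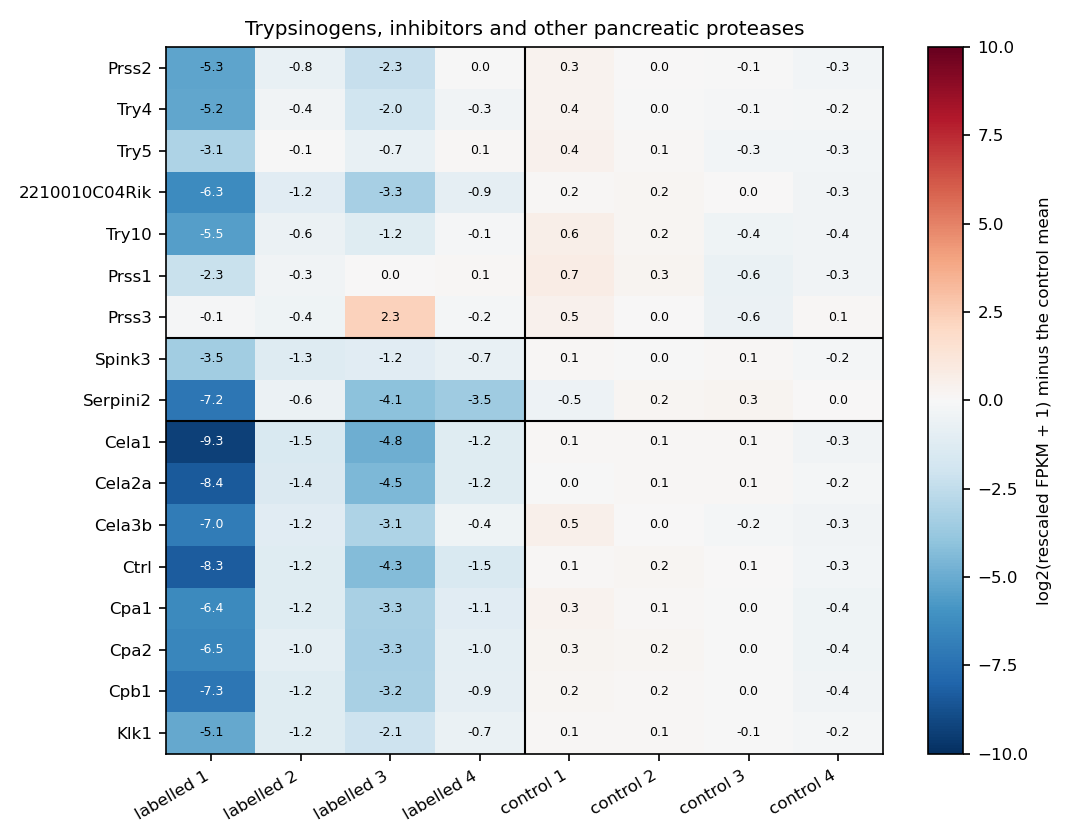
Log2(rescaled FPKM + 1) minus the mean of the 4 controls for 7 trypsinogens (top), 2 inhibitors (middle) and 8 other pancreatic proteases (bottom), in labelled libraries 1 to 4 (left) and controls 1 to 4 (right). Labelled library 1 had the lowest values in 16 of 17 genes, and Prss3 in labelled library 3 was the one value far above the controls.

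Genes that process or handle trypsinogen went in both directions. Of 10 such genes 6 were tested and none passed. At an unadjusted p under 0.05, 2 were lower (12.3% of all genes were) and 1 was higher (18% of all genes were). The same 3 had groups that did not overlap, against 7.64% of all genes lower and 10.9% higher, and the median was -0.03. Ctsb, the lysosomal protease cathepsin B that can activate trypsinogen, had 82.0, 41.8, 107 and 37.8 rescaled FPKM in labelled libraries 1 to 4, against 36.3, 29.8, 26.03 and 29.8 in controls 1 to 4 (log2 fold change 0.99, SE 0.35, limma adjusted p = 0.124). Ctsl, encoding cathepsin L, which degrades trypsinogen, had 85.9, 112, 160 and 137 in labelled libraries 1 to 4, against 131, 146, 149 and 137 in controls 1 to 4 (adjusted p = 0.547). Cst3, the cysteine protease inhibitor cystatin C, had 140, 199, 132 and 211 in labelled libraries 1 to 4, against 313, 296, 293 and 236 in controls 1 to 4 (log2 fold change -0.76, adjusted p = 0.121). The signs of Ctsl and Cst3 turned positive when libraries were scaled to equal sums outside the digestive enzymes. Without labelled libraries 1 and 3 the log2 fold change of Ctsb was 0.38 (limma adjusted p = 0.437). Ctsb was named after its values were seen.

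Of 32 other protease inhibitors 17 were tested and none passed; at an unadjusted p under 0.05, 6 were higher (18% of all genes were) and 2 lower (12.3% of all genes were), and the median was 0.66. Spint2, a Kunitz-type inhibitor of epithelia, had 39.9, 69.7, 60.9 and 113 rescaled FPKM in labelled libraries 1 to 4, against 119, 106, 103 and 91.2 in controls 1 to 4 (log2 fold change -0.65, limma adjusted p = 0.195). Serpina3n, an acute-phase serpin and the member with the smallest adjusted p, had 20.3, 5.97, 26.4 and 6.97 in labelled libraries 1 to 4, against 1.29, 1.14, 1.34 and 1.40 in controls 1 to 4 (log2 fold change 2.55, SE 0.43, adjusted p = 0.0563). Tmprss15, which encodes enteropeptidase, was at 0.006 in labelled library 1 and listed at 0 in the other 7 libraries.

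Marker lists of pancreatic cell types were followed in the same libraries. Of the 11760 genes tested, 4955 had a negative log2 fold change and 6805 a positive one. The 12 acinar genes tested that encode no protease were all negative, with a median log2 fold change of -2.39. Of these 12, 7 were lower without overlap (7.64% of all genes were), and none passed. Their summed level was 1077, 74104, 15177 and 107743 rescaled FPKM in labelled libraries 1 to 4, against a range of 120384 to 175747 in the controls. Clps, encoding pancreatic colipase, had a log2 fold change of -3.49 (adjusted p = 0.167) and Cel, encoding bile salt-activated lipase, one of -3.68 (adjusted p = 0.176). Without labelled library 1 these were -1.85 and -1.92, and with library 3 left out too -0.92 and -0.79. All 8 macrophage markers in the tables were positive, with summed levels of 841, 263, 734 and 214 in labelled libraries 1 to 4, against a range of 105 to 163 in the controls. All 8 fibroblast markers were positive, with sums of 745, 307, 1071 and 324 in labelled libraries 1 to 4, against a range of 183 to 252 in the controls. None of the macrophage or fibroblast markers passed (8 of 8 in each list at an unadjusted p under 0.05, where 18% of all genes were higher).

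All 8 adipocyte markers were positive, as were 6805 of the 11760 genes tested. Their sums were 497, 438, 380 and 453 in labelled libraries 1 to 4, against a range of 75.8 to 225 in the controls. Cidec and Plin1, which encode lipid droplet proteins, passed as higher, as did 0.238% of all genes tested. Their log2 fold changes were 1.95 and 1.84 (limma adjusted p = 0.0342 for Cidec and just under 0.05 for Plin1). The adjusted p was above 0.05 in 16 and 21 of 26 other settings. Islet markers summed to 5966, 1490, 945 and 763 in labelled libraries 1 to 4, against a range of 558 to 1476 in the controls, and all 8 were positive with none passing. The 6 tested duct markers had a median of 0.03 and the 6 tested lymphocyte markers one of 0.78, with none passing. Intestinal markers summed to 0.403 to 1.25 in the labelled libraries, against 0.102 to 0.443 in the controls, with Fabp2, Apoa4, Sis and Alpi at 0 in all 8. The macrophage and fibroblast sums were highest in labelled libraries 1 and 3, the libraries with the least trypsinogen, and their part in the trypsinogen and inhibitor values was not tested.

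Across the 8 libraries the summed trypsinogens were most like Cela3b (Pearson r = 0.998), Gm13011 (0.997), Sycn (0.997), Amy1 (0.997) and Pnliprp1 (0.997) on the log2 scale. Cela3b encodes an elastase, Sycn the granule protein syncollin, Amy1 an amylase and Pnliprp1 a lipase-related protein. Spink3 was most like Gm17114 (0.997), 1110008F13Rik (0.994), Hsd17b13 (0.992), Carkd (0.989) and Dnajb12 (0.988), of which Hsd17b13 encodes a lipid droplet protein and Dnajb12 a co-chaperone. These values describe 8 points that share libraries and scaling, and labelled library 1 lay far from the others.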

How the data were processed

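Poly(A) RNA of 8 whole pancreases (RNA integrity numbers 7.1 to 8.8, TruSeq libraries, Genome Analyzer IIx, per the labels' protocols) had been processed by the authors with CASAVA 1.8, TopHat2 2.0.4, Bowtie and Cufflinks 2.0.1 on mm9 (NCBIM37), per the submitters' processing notes. Read length, strand, gene model release and the scaling used in Cufflinks were not given in the sources used here. The authors deposited 1 table of gene FPKM per sample, with intervals and a status, per the file headers. The tables hold 36448 entries for 36432 IDs, and the 14 IDs on several entries were summed. The deposited FPKM summed to 2.34e+10 to 1.86e+11 per sample, so all values were divided by 100000, a constant chosen after the files were seen. No count test was possible; fragment numbers, implied by how wide the intervals are, cover counting error only, and miss genes listed at 0 with status HIDATA (0 to 6 per labelled library, 6 to 8 per control).

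Genes with a mean of at least 1 and status OK in all 8 samples, 11760 in all, were tested with limma 3.58.1 (R 4.3.3) on log2(rescaled FPKM + 1) with an intensity trend, two-sided, with Benjamini-Hochberg adjustment over all of them and a threshold of 0.05. The pseudocount of 1 understates changes of low genes. The script was tested on simulated data. A positive log2 fold change means higher in the labelled libraries. Replicates were numbered in accession order. Group values are mean ± SD. Named are the 10 genes, Gata6, of each other list up to 4 genes that passed or else the 2 of highest mean, and the 5 genes most correlated with the summed trypsinogens and with Spink3; others are said to be chosen after their values were seen. Gm10334, Gm5771, Gm5409, 1810035I16Rik, Serpina3n and Tmprss15 were also chosen so. The genes and lists were chosen with earlier results of these data known. Alternatives were other pseudocounts, minimums, scalings, limma options, title prefixes and omitted libraries. GENCODE M21 and RefSeq (GRCm38) supplied sequences only.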

Additional observations from a re-analysis of the deposited data

Results flagged for a closer look

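In 3 of 36 groups of 4 values checked, 1 library lay far from the other 3 (by Dixon's test at its 95% level, which chance passes in about 1 of 20 groups). Prss3 in labelled library 3 was 2491 rescaled FPKM, against 387 to 471 in labelled libraries 1, 2 and 4. Serpini2 in labelled library 2 was 408, against 3.07 to 51.3 in labelled libraries 1, 3 and 4. The ratio of summed trypsinogens to Serpini2 in control 1 was 482, against 212 to 248 in controls 2 to 4. Control 1 was also the only control with a BKD title.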

How the results depend on the processing

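No member passed in the main test, and none passed under 24 of the 26 other settings. With sample weights, which also raised the calls over all genes to 2338 higher and 1492 lower, 4 members were lower (adjusted p = 0.0458 for Prss2, 0.0210 for 2210010C04Rik, 0.0358 for Spink3 and 0.0154 for Serpini2). Leaving out 1 library gave 0 to 1 members lower: without labelled library 2, Serpini2 had a log2 fold change of -4.95 (adjusted p = 0.0487). Over all genes, 28 higher and 23 lower became 18 and 25 with median-ratio, 14 and 23 with quantile, 21 and 0 with equal-sum and 5 and 0 with implied-fragment scaling, 24 and 11 without a minimum, and 21 and 15 with a minimum of 5. They became 1411 and 1233 without labelled library 4, 70 and 49 without labelled library 2, 7 to 22 and 2 to 11 without any 1 other library, 11 and 2 without labelled libraries 1 and 3, 4 and 1 with the title prefix as covariate, 73 and 3 among the ASK and BSH titles and 0 and 6 among the BKD titles.

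Prss2, Try4, Try10, 2210010C04Rik, Spink3 and Serpini2 stayed negative under every setting in which they were fitted, but their size did not hold: from the main test to quantile and implied-fragment scaling, Prss2 went from -2.11 to -0.26 and -0.85, Try4 from -1.97 to -0.15 and -0.71, Try10 from -1.87 to -1.06 and -0.62, 2210010C04Rik from -2.93 to -1.34 and -1.67, Spink3 from -1.65 to -0.49 and -0.39, and Serpini2 from -3.85 to -3.44 and -2.67. Under quantile, equal-sum and implied-fragment scaling Prss1 turned to 0.29, 0.34 and 0.65, Try5 to 0.89, 0.007 and 0.31, and Ctsl to 0.20, 0.73 and 1.03. Under the last 2 scalings, which moved the median of all genes to 0.82 and 1.04, Cst3 turned to 0.19 and 0.50 and Spint2 to 0.29 and 0.60. Among the ASK and BSH titles Prss3 was -0.25, Try5 0.061 and Gm10334 -0.26. With labelled libraries 1 and 3 left out they were -0.29, 0.023 and -0.21. Prss3 was -0.022 with the prefix as covariate and -0.23 without labelled library 3; leaving out 1 library at a time gave -0.23 to 0.66. Gm5771 was -0.037 with median-ratio scaling, -0.32 with the prefix as covariate, -0.53 in BKD titles and -0.12 in ASK and BSH titles, -0.025 with labelled libraries 1 and 3 left out, and -0.24 to 0.45 with any 1 library left out.

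The log2 balance of trypsinogen to Spink3 became 2.20 with Serpini2 as inhibitor, 0.78 within ASK and BSH titles, 0.61 with labelled libraries 1 and 3 left out, and ranged from -0.39 to 0.20 when 1 library was left out. Without labelled libraries 1 and 3 the differences in share were 0.11 percentage points for Prss1, -0.39 for Prss2, 0.013 for Prss3, 5.34 for Try5 and -5.82 for 2210010C04Rik. The causes were not tested. No paired analysis was possible because the labels give no replicate numbers shared between the groups. Depth did not limit the abundant members; status codes did for Try4 and Ctrc.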

Other observations

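Outside the 10, 5 further trypsinogen-like genes of the same locus were followed. In 2 of them every labelled library was above every control, as in 10.9% of all genes tested. The groups of the other 3 overlapped: Gm5409 had a log2 fold change of -1.53, Gm5771 one of 0.16 and Gm10334 one of 0.79 (limma adjusted p = 0.305, 0.862 and 0.446). Gm2663 had 1111, 90.6, 2201 and 29.9 rescaled FPKM in labelled libraries 1 to 4, against 11.7, 0.478, 3.83 and 3.62 in controls 1 to 4, and 1810009J06Rik had 1225, 94.9, 2239 and 28.7, against 11.8, 0.966, 3.90 and 3.88. Every labelled library was above every control for both genes, and labelled libraries 1 and 3, which had the least of the abundant trypsinogens, had the most. The log2 fold changes were 5.99 (SE 1.35) and 5.91 (SE 1.34), and neither passed (limma adjusted p = 0.0882 for each). Both passed without labelled library 4 (adjusted p = 0.0291 for each) and with sample weights (0.0149 for each), and they were 3.56 and 3.43 without labelled libraries 1 and 3. These genes are 99.5% identical in coding sequence, so how reads were divided between them is uncertain, and they are 77.6% and 77.5% identical to 2210010C04Rik. Each has 2 aspartate codons before the activation lysine. They share no window of 50 bases with any of the 7 copies. They were chosen after their values were seen.

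1810035I16Rik, which overlaps Ctrc, was lower in the labelled libraries. It had 0.604, 1.84, 0.304 and 0 rescaled FPKM in labelled libraries 1 to 4, against 4.17, 8.89, 7.06 and 10.8 in controls 1 to 4 (log2 fold change -2.42, SE 0.36, limma adjusted p = 0.0342, above 0.05 in 14 of 25 other settings), with 0 to 3.46 implied fragments in the labelled libraries and 5 to 18.9 in the controls.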
